A study of Homo sapiens with 9 samples.

Results

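Potassium channel genes encode the proteins that let potassium ions leave or re-enter a cell, together with the subunits that accompany them. In the 9 libraries analysed here they were taken as the autosomal protein-coding genes whose symbol begins with KCN followed by letters and a number, which gave 92 of the 57820 genes in the count table. By symbol they fell into 5 classes. Voltage-gated pore subunits made up 39 genes, calcium- or sodium-activated pore subunits 8, inward rectifiers 15, K2P leak channels (subunits with a pair of pore domains) 15 and auxiliary subunits 15.

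The pore subunits assemble around a central conducting path. Voltage-gated channels open on depolarisation and end an action potential, inward rectifiers and leak channels hold the resting potential, and calcium- or sodium-activated channels couple it to the concentration of those ions. Auxiliary subunits form no pore of their own: they change the trafficking, gating or inactivation of a pore. Many of these genes are known from neurons, heart muscle and the kidney tubule rather than from cultured epithelial-like lines.

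The libraries came from HEK293T, a human embryonic kidney line that carries the SV40 large T antigen, and were made by Chrom-seq, which labels RNA near a chosen chromatin mark. In all groups the cells were transiently co-transfected with a GCN4-peptide fusion under the cytomegalovirus promoter and an antibody fragment joined to the peroxidase APEX2 under the chicken beta-actin promoter, and were grown for 48 h. Biotin-aniline (500 µM for 30 min) and H2O2 (1 mM for 1 min) then let APEX2 tag nearby RNA, which was recovered and sequenced as polyadenylated RNA. The groups of 3 libraries differed in the GCN4 fusion. In the CBX1 group it held only the chromodomain of CBX1, the part that binds methylated lysine 9 of histone H3. CBX1_W42A was the same reader with the tryptophan substitution to alanine that its name gives, and the control had no reader. A higher count in a reader group is therefore a higher share of the RNA labelled there, and more of a transcript in the cells, a transcript lying nearer to the reader and a change in a fraction of the cells cannot be told apart. The labels did not say whether the libraries of a group came from separate cultures. For CBX1 against the control the study calls its 3 replicates independent, without naming separate cultures. The p-values therefore measure only the spread between these libraries, which may be technical.

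Libraries held 8379542 to 11082852 counts in genes, of which the potassium channel genes took 0.0338% to 0.0491%. Counts were read pairs per gene over its whole span, introns included, so a value cannot be split between mature and unspliced RNA. Reads were kept apart by strand and dropped where genes of a strand overlap: all 7910 genes lying wholly inside another gene of their own strand had 0 counts, and 4071 of 10641 inside a gene of the other strand had counts. Genes detected with at least 1 count numbered 21709 to 21876 in the control libraries and 22649 to 23819 in the reader libraries; the part of this gap in the comparisons with the control was not tested. Markers were those of the line: VIM stood at 566 ± 63.3 CPM (library-scaled counts, SD, n = 3) in the control and KRT8 and NEFM were also present, while the embryonic kidney marker PAX8 was near absent, at 0.159 ± 0.186 CPM. The neuronal markers SYT1 and SNAP25 stood at 15.5 ± 2.9 and 10.3 ± 0.924 CPM in the control. The blood markers HBB and CD3E were at 0 and PTPRC had 3 counts over the 9 libraries. Of the fibroblast markers COL1A2 was at 0 and DCN had 4 counts, all in CBX1 replicate 3, whereas COL1A1 stood at 30.4 ± 6.89 CPM in the control.

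Detection of the family was uneven. Of the 92 genes, 7 had no count in any library, namely KCNA6, KCNC2, KCNG4, KCNJ15, KCNK18, KCNMB1 and KCNU1. A count of 0 in a library allows up to 3 counts by counting error. The whole span of KCNA6 lies inside another gene of its strand, so its 0 says nothing of its RNA. A further 17 genes had 1 to 18 counts over the 9 libraries together, 59 had at least 1 count in every library, 38 at least 10 and 12 at least 100. By share, the calcium- or sodium-activated subunits were the best measured, with 5 of 8 at 10 or more counts in every library. Voltage-gated subunits followed with 18 of 39, inward rectifiers with 7 of 15 and auxiliary subunits with 6 of 15. The K2P channels had only KCNK5 and KCNK1 at that level, 2 of 15.

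Per kilobase of gene span, the level in the control was highest for KCNJ11, the pore of the ATP-sensitive channel, at 2.66 ± 0.482 CPM per kb (SD, n = 3). The span includes introns, so this measure is not a level per kb of mature RNA. KCNJ11 spans only 3.47 kb and ranked 17 in the family by mean CPM over the 9 libraries. KCNJ8, the other ATP-sensitive pore, stood at 1.22 ± 0.0358 CPM per kb. Below it were KCNG1, a silent subunit that modifies other voltage-gated pores, at 0.856 ± 0.13 CPM per kb and KCNH2, the cardiac repolarising channel hERG, at 0.847 ± 0.0911 CPM per kb, which did not differ beyond their spread. KCNJ14, a strong inward rectifier, had 0.61 ± 0.158 CPM per kb. The inward rectifiers in this order, KCNJ11, KCNJ8 and KCNJ14, did not pass edgeR's quasi-likelihood test of CBX1 against the control, with adjusted p of 0.8, 0.179 and 0.125, and KCNG1 did not either (adjusted p = 0.39).

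**Figure D1:**
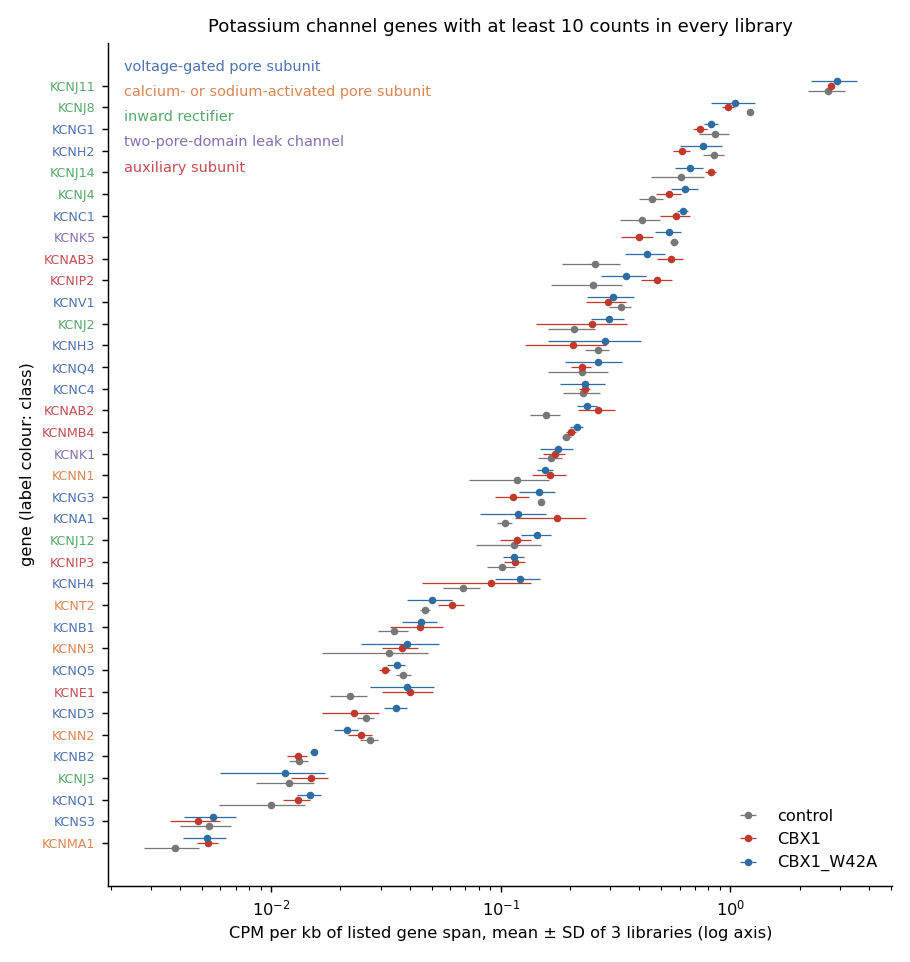
Level of 36 of the 38 potassium channel genes with at least 10 counts in every library, as CPM per kb of gene span (log axis), mean ± SD of 3 libraries in each group, with gene labels coloured by class. KCNJ11 lies at the top in all groups, and the groups overlap for most genes, while KCNAB2, KCNAB3 and KCNIP2 have control values to the left of the CBX1 values.

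The first comparison asked which potassium channel RNAs were more or less abundant near the CBX1 reader than with the reader-free control. KCNAB1, KCNAB2 and KCNAB3, the cytoplasmic beta subunits of Shaker-type voltage-gated channels, KCNIP2, a calcium-binding partner of the KCND pores, and KCNJ9, a G protein-gated inward rectifier, rose with CBX1. A gene was called when its adjusted p in edgeR's quasi-likelihood test was below 0.05 and its log2 fold change at least 0.75. These 5 made up 8.06% of the 62 genes tested, where 7.06% of all 18837 genes tested were called higher, so the share was near that of all genes. Among protein-coding genes alone 4.76% were called higher. Without CBX1 replicate 3 the 5 became 2, KCNAB3 and KCNJ9. No potassium channel gene was called lower, where 0.34% of all genes were. With no threshold on size, 7 genes passed the adjusted p upwards, where 10.6% of all genes did, and 2 downwards, where 9.46% did. The CBX1 libraries were all above the control libraries for 13 of the 62 (17.6% of all genes) and all below for 6 (20.3% of all genes).

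Of the auxiliary subunits KCNAB2 had the highest CPM, though per kb of span KCNAB3 and KCNIP2 stood higher, at 0.413 and 0.36 against 0.22 CPM per kb over the 9 libraries. It occupies chr1:6051526-6161253 on the plus strand (hg19). Its counts were 176, 130 and 164 in the control, 244, 227 and 363 with CBX1 and 273, 231 and 276 with CBX1_W42A. Every library of either reader lay above every control library, and the reader groups overlapped. The mean rose from 17.2 ± 2.6 CPM in the control to 29.1 ± 5.25 CPM with CBX1 (SD, n = 3), a log2 fold change of 0.79 (SE 0.15, adjusted p = 0.00214 in edgeR's quasi-likelihood test). The size stood close to the threshold, and without CBX1 replicate 3 it was 0.63 and without control replicate 2 it was 0.68, both no longer called.

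KCNAB3 occupies chr17:7825177-7833121 on the minus strand. Its counts were 15, 23 and 17 in the control, 35, 45 and 44 with CBX1 and 46, 27 and 31 with CBX1_W42A. The control did not overlap with either reader group. KCNAB3 rose from 2.04 ± 0.569 to 4.38 ± 0.561 CPM with CBX1 (SD, n = 3), a log2 fold change of 1.13 (SE 0.30, adjusted p = 0.0145 in edgeR's quasi-likelihood test). Leaving out control replicate 1 or CBX1 replicate 2 moved the adjusted p to 0.0631 and 0.0509. Only 51.3% of its span is free of another gene on its strand, so part of its reads could not be counted.

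KCNAB1 lies at chr3:155755490-156256545 on the plus strand and had almost no counts without a reader. Its counts were 0, 2 and 0 in the control, 11, 4 and 11 with CBX1 and 8, 5 and 1 with CBX1_W42A. All CBX1 libraries were above the control libraries, but the gene passed the filter on low counts only through the CBX1 libraries. The summed counts were 26 with CBX1 and 2 in the control, a depth-corrected ratio of 12.5 with a 95% counting interval of 3.14 to 109. KCNAB1 was called at an adjusted p of 0.0174 in edgeR's quasi-likelihood test, and its fitted log2 fold change of 3.44 depends on the prior count. Without control replicate 1 its adjusted p was 0.0608 and without control replicate 3 it was 0.0529, and it was no longer tested without CBX1 replicate 1, without CBX1 replicate 3 or with the stricter filterByExpr.

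KCNIP2 lies at chr10:103585731-103603677 on the minus strand. Its counts were 29, 43 and 48 in the control, 82, 64 and 100 with CBX1 and 84, 46 and 60 with CBX1_W42A. The CBX1 and control libraries did not overlap, whereas CBX1_W42A replicate 2 fell among the control values. The level rose from 4.5 ± 1.53 to 8.62 ± 1.35 CPM (SD, n = 3), a log2 fold change of 0.98 (SE 0.25, adjusted p = 0.0112 in edgeR's quasi-likelihood test), with adjusted p of 0.0509 without control replicate 1 and 0.0577 without CBX1 replicate 3. The antisense RNA KCNIP2-AS1, which overlaps its span on the other strand, was also called with CBX1, at a log2 fold change of 0.85 (adjusted p = 0.0276 in edgeR's quasi-likelihood test). The counts of this pair were kept apart by strand.

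KCNJ9 was the called gene outside the auxiliary subunits. It lies at chr1:160051360-160060353 on the plus strand. Its counts were 5, 5 and 12 in the control, 32, 33 and 27 with CBX1 and 15, 14 and 15 with CBX1_W42A. CBX1 libraries were above all others, and the CBX1_W42A libraries lay at 1.36 to 1.59 CPM, above 2 control libraries and level with the highest, at 1.46 CPM. The mean rose from 0.836 ± 0.538 to 3.28 ± 0.579 CPM (SD, n = 3), a log2 fold change of 2.01 (SE 0.42, adjusted p = 0.00372 in edgeR's quasi-likelihood test). Among the 5 genes it alone stayed called in all 13 alternatives run, at fold changes from 1.71 to 2.64. Of the other G protein-gated subunits, KCNJ5 had 9 counts in the control and 17 with CBX1 in all, KCNJ6 had 8 counts over the 9 libraries, and KCNJ3 had a log2 fold change of 0.34 (adjusted p = 0.524 in edgeR's quasi-likelihood test).

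**Figure D2:**
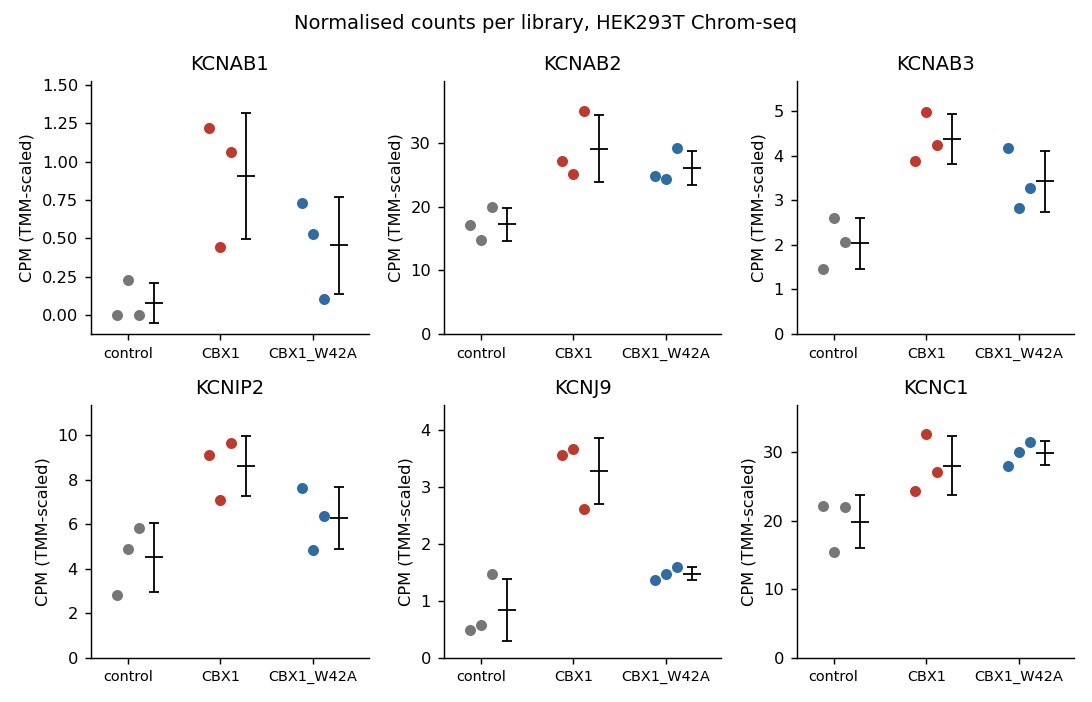
Normalised counts (CPM, linear axes) of KCNAB1, KCNAB2, KCNAB3, KCNIP2, KCNJ9 and KCNC1 in each library; points are libraries and the bars beside them the mean ± SD of 3 libraries in each group. In each panel the CBX1 points lie above the control points, and for KCNJ9 the CBX1_W42A points lie below all CBX1 points.

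The promoter sequences of called genes are shown to set side by side genes that moved in the same direction. RefSeq (build GRCh38.p14) promoter entries were matched for 68 of the 92 genes, and 3 of the called genes had one. Each was found exactly once on its own chromosome and strand in GRCh37, and other chromosomes were not searched. The 250 bases before the most upstream RefSeq start of each gene are given 5′ to 3′. They lie at chr3:155838087-155838336 (plus strand) for KCNAB1, chr1:6052486-6052735 (plus strand) for KCNAB2 and chr10:103603558-103603807 (minus strand) for KCNIP2. Capitals mark the GC box, GGGCGG on either strand.
KCNAB1: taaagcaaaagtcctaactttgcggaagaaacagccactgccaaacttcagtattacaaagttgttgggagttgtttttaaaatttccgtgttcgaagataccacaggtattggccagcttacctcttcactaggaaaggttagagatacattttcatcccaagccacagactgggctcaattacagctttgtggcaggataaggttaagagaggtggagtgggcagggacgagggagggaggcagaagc
KCNAB2: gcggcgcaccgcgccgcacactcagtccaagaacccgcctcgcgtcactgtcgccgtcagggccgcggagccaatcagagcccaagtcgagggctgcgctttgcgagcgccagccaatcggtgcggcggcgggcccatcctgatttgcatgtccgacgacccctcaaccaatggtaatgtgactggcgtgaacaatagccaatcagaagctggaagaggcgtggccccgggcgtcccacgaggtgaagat
KCNIP2: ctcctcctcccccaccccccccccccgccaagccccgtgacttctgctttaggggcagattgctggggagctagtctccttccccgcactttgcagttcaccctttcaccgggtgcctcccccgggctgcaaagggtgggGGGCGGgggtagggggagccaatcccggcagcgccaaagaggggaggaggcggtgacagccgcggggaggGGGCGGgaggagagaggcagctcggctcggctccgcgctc

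The 3 windows differed widely in composition. The KCNAB2 window held 27 CpG dinucleotides at 64.8% G plus C, that of KCNIP2 16 at 71.2% and that of KCNAB1 4 at 45.6%, where the median over all 35116 promoters was 11 CpG and 58.0%. The GC box occurred 2 times upstream of KCNIP2 and not in the other windows. Over the family, 48.1% of the 106 matched promoters and 42.6% of all promoters held it. The letters CCAAT, searched on both strands, occurred 4 times upstream of KCNAB2 and in 32.1% of the family's promoters, against 32.0% of all promoters. The KCNAB1 start lies 82847 bases inside its listed span, and the gene has 5 RefSeq starts in all, so the counts cannot be assigned to a start.

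Of the 15 auxiliary subunits, 12 could be tested and all 12 had a positive log2 fold change with CBX1, with a median of 0.94, where 52.9% of all genes tested were positive and their median was 0.03. Of these, KCNAB1, KCNE2, KCNE4 and KCNIP4 had 9 or fewer counts in at least one of the compared groups, so that the filter itself favoured those that were higher with CBX1. Low abundance also went with higher values over all genes tested, with medians of 0.43 at 1 to 5 CPM and 0.71 under 1 CPM. KCNAB3, KCNIP1, KCNE1 and KCNMB3 lay in the first range and KCNAB1, KCNIP4, KCNE2 and KCNE4 in the second. The part of abundance in the class median was not tested. Without control replicate 1, 10 of 12 were positive. The KCNAB genes and KCNIP2 were the 4 that were called. KCNIP4, another KCND partner, had counts of 2, 2 and 5 in the control and 20, 8 and 8 with CBX1 (log2 fold change 1.93, adjusted p = 0.0506 in edgeR's quasi-likelihood test). KCNIP1, of the same kind, had 22, 7 and 12 against 34, 28 and 21 (1.01, adjusted p = 0.0775). KCNE1, the partner of KCNQ1 in the slow cardiac current, had 12, 15 and 12 against 18, 30 and 27 (0.91, adjusted p = 0.0865). None of the last 3 passed the test, although the CBX1 and control libraries of KCNIP4 and KCNE1 did not overlap. KCNIP4 was called with library size alone and with no filter on low counts, and KCNIP1 with no filter.

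The other auxiliary subunits were not called. KCNMB4, a beta subunit of the large-conductance calcium-activated channel, had counts of 137, 120 and 102 in the control and 120, 121 and 150 with CBX1, with a log2 fold change of 0.10 and a 95% interval from -0.18 to 0.38. KCNIP3, which also acts as a calcium-dependent transcriptional repressor, had a log2 fold change of 0.20 with an interval from -0.14 to 0.55. KCNMB3 stood at 0.22 and the sparsely counted KCNE2 and KCNE4 at 1.63 and 0.38, none past the test. The positive value of KCNE2 rested on CBX1 replicate 1, with 20, 1 and 1 counts with CBX1 against 5, 2 and 0 in the control. KCNMB2 and KCNE3 had 8 and 2 counts in all and were not tested.

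The summed level of the auxiliary subunits was 50.2, 49.4 and 55.1 CPM in the control, 77.0, 70.8 and 83.5 CPM with CBX1 and 71.7, 63.4 and 69.6 CPM with CBX1_W42A. Both reader groups lay above the control in every library, and the reader groups overlapped. KCNAB2 supplied 33.5% of the control sum and 37.8% of the CBX1 sum. Without it the remaining genes summed to 34.3 ± 1.13 CPM in the control, 48.0 ± 2.19 CPM with CBX1 and 42.1 ± 4.17 CPM with CBX1_W42A (SD, n = 3).

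**Figure D3:**
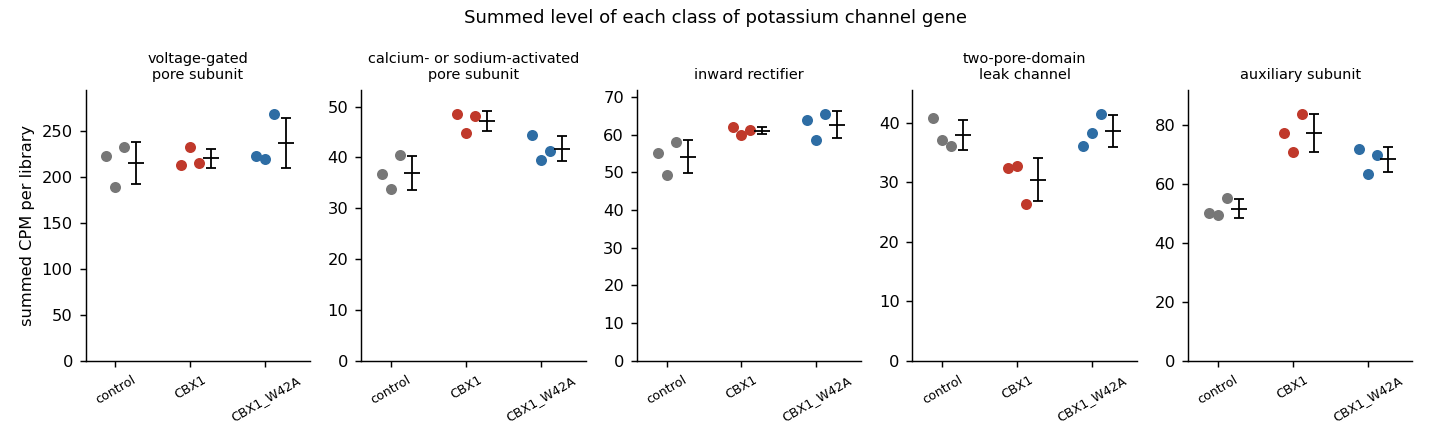
Summed CPM (linear axes from 0) of each class of potassium channel gene in each library; points are libraries and the bars the mean ± SD of 3 libraries. The auxiliary subunits lie at 49.4 to 55.1 CPM in the control and at 70.8 to 83.5 CPM with CBX1, and the K2P (two-pore-domain) channels lie lower with CBX1, at 26.3 to 32.7 CPM, than in the other groups.

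Among the 39 voltage-gated pore subunits, 26 were tested with CBX1 and none was called. Of them 15 were positive, and the median log2 fold change was 0.04. KCNC1, a fast delayed rectifier of rapidly firing neurons, had counts of 228, 136 and 181 in the control, 219, 295 and 280 with CBX1 and 308, 285 and 298 with CBX1_W42A. In CPM every reader library lay above the control libraries, at 24.3 to 32.7 with CBX1 against 15.4 to 22.2. Its log2 fold change was 0.52 (SE 0.15, adjusted p = 0.0237 in edgeR's quasi-likelihood test), below the threshold of size, and the adjusted p rose to 0.108 without CBX1 replicate 2 and to 0.0756 without control replicate 2.

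Of the 11 voltage-gated genes with a negative value, KCNH2 alone passed the adjusted p. Its level was 31.8, 26.2 and 26.8 CPM in the control, 19.9, 22.5 and 19 CPM with CBX1 and 21.9, 22.8 and 31.5 CPM with CBX1_W42A. The CBX1 libraries lay below all control libraries and the CBX1_W42A libraries overlapped with both. The log2 fold change with CBX1 was -0.44 (SE 0.13, adjusted p = 0.0210 in edgeR's quasi-likelihood test), short of the threshold of size, and the adjusted p was 0.0934 without control replicate 1, 0.0662 without CBX1 replicate 1 and 0.0979 without CBX1 replicate 3. The sparse KCNA7 had 20, 16 and 6 counts in the control, 7, 9 and 1 with CBX1 and 21, 34 and 8 with CBX1_W42A, and did not pass against the control (log2 fold change -1.27, adjusted p = 0.149).

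K2P leak channels had mostly negative values with CBX1. Of the 7 tested, 2 were positive and the median log2 fold change was -0.49. That median was -0.13 without CBX1 replicate 3, -0.27 without control replicate 1 and -0.26 without control replicate 2. KCNK5, a leak channel of kidney epithelium opened by alkaline pH, supplied most of the class. It stood at 24.1, 22.4 and 22.6 CPM in the control, 15.0, 19.1 and 14.3 CPM with CBX1 and 18.7, 22.6 and 24.3 CPM with CBX1_W42A. The CBX1 libraries lay below the control libraries (log2 fold change -0.49, SE 0.14, adjusted p = 0.0199 in edgeR's quasi-likelihood test), again short of 0.75, and the adjusted p was 0.0582, 0.0736 and 0.104 without control replicate 1, CBX1 replicate 1 and CBX1 replicate 3. Without KCNK5, the summed level of the class was 14.9 ± 1.61 CPM in the control and 14.3 ± 2.74 CPM with CBX1 (SD, n = 3), a difference smaller than the spread. KCNK1 had a log2 fold change of 0.08. KCNK12, KCNK9 and KCNK2, at 1 to 16 counts per library, had -0.81, -1.29 and -0.61 without passing the test. The sparse KCNK6 went the other way at 0.87, also without passing, with 3, 8 and 3 counts in the control and 12, 12 and 2 with CBX1. The counts of KCNK9 were 16, 1 and 1 in the control and 3, 1 and 3 with CBX1. That gene passed the filter on low counts only through the control, so the filter favoured a negative value for it.

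In the remaining pore classes no other gene was called. Of 6 calcium- or sodium-activated subunits tested, 5 were positive with a median of 0.45, which was 0.29 without control replicate 1 and 0.21 without control replicate 2. KCNT2, a sodium-activated channel, had 190, 150 and 152 counts in the control and 240, 185 and 241 with CBX1 (log2 fold change 0.41, SE 0.13, adjusted p = 0.0383 in edgeR's quasi-likelihood test), a value below the threshold of size that lost the adjusted p in 5 of the 6 fits that left out a library. Of 11 inward rectifiers tested, 9 were positive with a median of 0.30, and 7 with a median of 0.18 without control replicate 2 or without CBX1 replicate 3. KCNJ4 was the class member with the highest CPM. It had 140, 101 and 118 counts in the control, 126, 161 and 156 with CBX1 and 192, 156 and 200 with CBX1_W42A. KCNJ1, a renal tubule channel, had 5, 6 and 6 against 19, 12 and 14 with CBX1 (log2 fold change 1.36, adjusted p = 0.0571 in edgeR's quasi-likelihood test). KCNJ1 was called higher with library size alone and with filterByExpr.

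**Figure D4:**
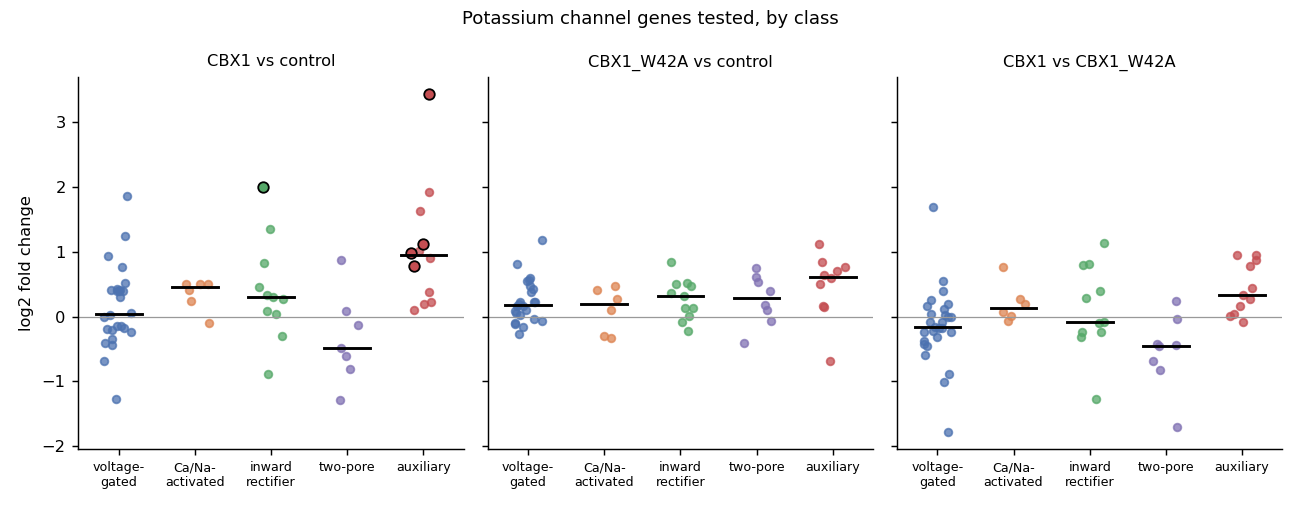
Log2 fold changes of the potassium channel genes tested in each of the 3 comparisons, by class; points are genes, outlined points are called genes and black bars class medians. With CBX1 against the control the auxiliary subunits have a median of 0.94 and the K2P (two-pore) channels one of -0.49, and no gene is outlined in the other comparisons.

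Abundance moved with these values. The median control level of the family's tested genes was 2.90 CPM, against 15.8 CPM for all genes tested, and over all genes log2 fold changes with CBX1 were higher at low abundance (across 18811 genes, Pearson's r -0.49 and Spearman's rho -0.48 with mean log2 CPM; genes are not independent replicates). Over the 62 potassium channel genes the same values were -0.28 and -0.26. In the range of 1 to 5 CPM the median over all genes was 0.43 with CBX1 and 17.4% were called higher, and the 23 potassium channel genes in that range had a median of 0.34 and 2 calls. From 5 to 20 CPM the medians were 0.09 for all genes and 0.08 for 19 family members. Under 1 CPM they were 0.71 and 0.83, for 13 members. Above 20 CPM the medians lay further apart, at -0.11 for all genes and 0.40 for 7 members, which included KCNAB2, KCNC1 and KCNT2 with positive values and KCNH2 and KCNK5 with negative ones; this difference between lists was not tested. The median over all 62 members was 0.31, falling to 0.17 without control replicate 2, 0.20 without CBX1 replicate 2 and 0.15 without CBX1 replicate 3, and the part of abundance in it was not tested further.

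**Figure D5:**
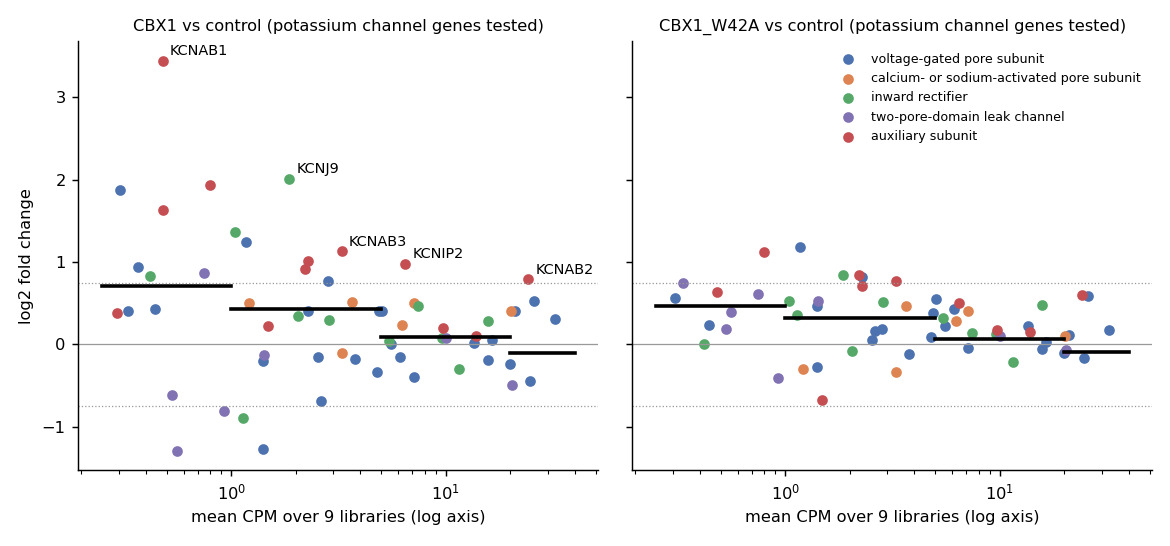
Log2 fold change of each potassium channel gene tested against its mean CPM over the 9 libraries (log axis), for CBX1 and for CBX1_W42A against the control; colours give the class, black bars the median of all genes tested within under 1, 1 to 5, 5 to 20 and over 20 CPM, and dotted lines 0.75 and -0.75. The bars fall from 0.71 to -0.11 in the left panel and from 0.47 to -0.09 in the right one, and the called genes are named.

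Guanosine made up a median of 28.2% of the span in the 5 called genes, with a range from 20.3% to 30.1%, 23.7% in the members tested and 23% in all genes tested. Among all genes called higher with CBX1 the median was 22.8%. Over the 62 members tested the guanosine share had a Spearman's rho of -0.03 with the log2 fold change. Span length, which ranged from 1.96 to 1220 kb in the family, had a Spearman's rho of 0.09 with the log2 fold change over the 62 genes, a description across genes in the same libraries.

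The second comparison, CBX1_W42A against the same control libraries, asked how the family stood with the substituted reader. No potassium channel gene was called among 59 tested, where 0.974% of all genes were called higher (0.753% of protein-coding genes) and 0.0214% lower. With no threshold on size 2 passed the adjusted p upwards, where 1.37% of all genes did, and 0 downwards, where 1.25% did. The CBX1_W42A libraries were all above the control for 12 genes (12% of all genes) and all below for 3 (12.5%). In edgeR's test 7 of the 59 had an unadjusted p below 0.05, where 3599 of all 18680 genes tested did, and DESeq2 also called 0. Positive values were found for 46, or 78.0%, against 51.7% of all genes, and the median was 0.22 against 0.01. In the 1 to 5 CPM range, the medians were 0.38 for 23 members and 0.32 for all genes.

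The genes that rose with CBX1 had values on the same side here without being called. KCNAB2 had a log2 fold change of 0.60 (SE 0.15, adjusted p = 0.0414 in edgeR's quasi-likelihood test), which passed the adjusted p but not the threshold of size, and its adjusted p was between 0.0542 and 0.147 when a library was left out. KCNC1 was alike at 0.59 (SE 0.15, adjusted p = 0.0450 in edgeR's quasi-likelihood test), with 0.0704 to 0.140 when a library was left out. KCNAB3 stood at 0.77 with a 95% interval from 0.12 to 1.41, KCNJ9 at 0.84 with -0.15 to 1.83 and KCNIP2 at 0.50 with -0.04 to 1.04, at adjusted p of 0.208, 0.376 and 0.332 in edgeR's quasi-likelihood test. KCNAB1 was not tested, with 14 counts against 2 in the control, a depth-corrected ratio of 6.39 with a 95% counting interval from 1.47 to 58. KCNH2 and KCNK5 were at -0.16 and -0.07, and KCNJ4 at 0.48 (adjusted p = 0.113). Both comparisons used the same control libraries, so a control library that stands apart moves both.

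The third comparison set the readers against each other and used no control library. The CBX1_W42A samples were numbered apart from those of the other groups, and the labels did not say whether they were prepared together. A difference in preparation cannot be told apart from an effect of the reader, here or in the second comparison. None of the 63 genes tested was called, where 0.795% of all genes were called higher with CBX1 (0.754% of protein-coding genes) and 0.201% lower. With no threshold on size the count was also 0 in both directions, where 1.32% of all genes passed upwards and 0.925% downwards. The CBX1 libraries were all above those of CBX1_W42A for 5 genes (10.3% of all genes) and all below for 3 (11%). In edgeR's test 9 of the 63 had an unadjusted p below 0.05, where 3220 of all 19360 genes tested did, and DESeq2 also called 0. Positive and negative values were balanced, at 30 and 33, with a median of -0.01. KCNJ9 was nearest to a call among the positive ones, at 1.14 (SE 0.34, 95% interval 0.48 to 1.80, adjusted p = 0.0753 in edgeR's quasi-likelihood test), with each CBX1 library above each CBX1_W42A library. With no filter on low counts it was called, at an adjusted p of 0.0495 in edgeR's quasi-likelihood test, and so was KCNA7, lower, at 0.0155. KCNA7 was at -1.78 (SE 0.59, adjusted p = 0.118), from 7, 9 and 1 counts against 21, 34 and 8, in which the lowest CBX1_W42A library fell among the CBX1 values. KCNK5 was at -0.44 (SE 0.15, adjusted p = 0.138).

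Of the other called genes none passed the test between readers. KCNAB2 differed by 0.16 with a 95% interval from -0.12 to 0.44, KCNAB3 by 0.34 with -0.19 to 0.86 and KCNIP2 by 0.45 with 0.03 to 0.88, and the adjusted p in edgeR's quasi-likelihood test was 0.613, 0.566 and 0.298. KCNAB1 had 26 counts against 14, a ratio of 1.96 with a counting interval from 0.987 to 4.06. Thus for KCNAB1, KCNAB2, KCNAB3 and KCNIP2 a call with CBX1 and none with CBX1_W42A was not shown to be a difference between the readers, and for KCNJ9 the call depended on the filter. By class, 10 of 11 auxiliary subunits were positive with a median of 0.34, and 1 of 8 K2P channels with a median of -0.45. Over all genes 49.4% were positive, with a median of 0.0. Without CBX1_W42A replicate 3, 8 of 11 auxiliary subunits were positive. With a library left out the auxiliary median ran from 0.21 to 0.51 and that of the K2P channels from -0.63 to -0.36. Of those K2P channels, KCNK9 and KCNK15 had 9 or fewer counts with CBX1 in all, so the filter favoured negative values for them.

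Over all 92 genes the summed level was 406, 358 and 422 CPM in the control, 433, 440 and 434 CPM with CBX1 and 439, 419 and 486 CPM with CBX1_W42A. The CBX1 libraries lay above all control libraries and the CBX1_W42A libraries overlapped with both. The means were 395 ± 33.3, 436 ± 3.7 and 448 ± 34.4 CPM (SD, n = 3), a log2 ratio of CBX1 to control of 0.14, or of 0.25 when scaled by library size alone and 0.07 without control replicate 2. The voltage-gated class, with 215 ± 23.1, 220 ± 10.1 and 237 ± 27.3 CPM, overlapped throughout.

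Outside the family, other channel genes were compared with CBX1 against the control. The share of all genes called higher was 7.06%, as above. Of 15 genes for proteins that associate with potassium channels, such as sulfonylurea receptors, 7 were tested and ABCC8, the partner of KCNJ11, was called, with a log2 fold change of 0.78 (adjusted p = 0.00387 in edgeR's quasi-likelihood test) while KCNJ11 was at 0.08. Among 13 sodium channel genes 10 were tested and 2, SCN3A and SCN11A, were called higher, with a median of -0.15. Among 26 calcium channel genes 21 were tested and 2, CACNA1I and CACNA2D4, were called higher, with a median of 0.22. SCN3A had 3, 2 and 0 counts in the control against 10, 12 and 7 with CBX1. CACNA2D4 had 0, 4 and 1 against 13, 13 and 4. Both passed the filter on low counts only through the CBX1 libraries, so the filter favoured a positive value for them. The X-linked KCND1, a pore partner of the KCNIP subunits that the autosomal rule leaves out, had 59, 22 and 42 counts in the control, 109, 146 and 125 with CBX1 and 113, 112 and 104 with CBX1_W42A. Its log2 fold changes were 1.61 with CBX1 (adjusted p = 0.000353) and 1.30 with CBX1_W42A (adjusted p = 0.0140 in edgeR's quasi-likelihood test), and 0.29 between the readers. Noncoding genes with a KCN symbol numbered 15, of which KCNIP2-AS1 and KCNQ1OT1 were tested. KCNQ1OT1, the imprinted antisense RNA of the KCNQ1 locus, had log2 fold changes of 1.17 with CBX1 and 1.06 with CBX1_W42A (adjusted p = 5.45e-05 and 0.00175 in edgeR's quasi-likelihood test), whereas KCNQ1 itself was at 0.40 and 0.55 without passing.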

How the data were processed

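Per the labels and the methods of the study, the deposited count table was made by the authors with featureCounts (version 2.0.1) from HISAT2 (version 2.1.0) alignments to hg19, after trimming by fastp (version 0.23.1). Their processing notes also name FastQC (version 0.11.8) and DESeq2 (version 1.34.0). The deposited values are raw counts of 57820 genes in 9 libraries, with no normalization. The length listed with each gene equals its span for all 57820 genes, so introns were counted.

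Groups of 3 libraries came from the sample labels. In each of the 3 comparisons, genes with counts summing to more than 18 over the 6 libraries were normalised by TMM, and edgeR's quasi-likelihood test was applied (edgeR version 4.0.16, limma version 3.58.1, R version 4.3.3) with Benjamini-Hochberg adjustment over all genes passing that filter. Depth was 8379542 to 11082852 counts per library, and the biological coefficient of variation 10.5% to 11.7%. Counting intervals (95%) cover counting error only. CPM used TMM factors over the 9 libraries. The fits were tested on simulated data. Tables and figures used Python (version 3.11.15), pandas (version 2.3.3), numpy (version 2.4.6), scipy (version 1.17.1) and matplotlib (version 3.10.9).

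The members, classes and other gene lists were chosen with earlier results of these data known. The named genes were every called member, the 6 highest by CPM and by CPM per kb, the highest of each class, the 3 with the smallest adjusted p per comparison and any at 0 in the control with at least 10 counts in every library of another group (0 genes); others are named as a whole class, or after their values were seen. Some genes that meet this rule are counted in the totals but not reported here by name. Alternatives were RLE factors or library size alone, no filter or filterByExpr, DESeq2 (version 1.42.0), a replicate block, all 9 libraries in one fit, and each library left out. Promoters were 250-base windows of RefSeq entries found exactly in GRCh37.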

Additional observations from a re-analysis of the deposited data

How the results depend on the processing

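No called value changed direction under the alternatives run. Of the values that answer a comparison 130 kept their call or size and 8 moved. Among the values of single genes, 632 kept their side of the threshold, 8 fell short of it and 4 passed it. The number of potassium channel genes called higher with CBX1 against the control ran from 2 to 5 when a library was left out. The 2 that remained without CBX1 replicate 3 were KCNAB3 and KCNJ9. The median log2 fold change ran from 0.15 to 0.32. The log2 ratio of summed CPM of CBX1 to the control was 0.07 to 0.19 with a library left out and 0.25 with library size alone, which also gave a call count different from TMM, 7 genes against 5, as did no filter on low counts. Library size alone added KCNIP4 and KCNJ1, and no filter added KCNIP1 and KCNIP4. With filterByExpr 5 genes were called, with KCNJ1 but without KCNAB1, which was not tested there. Between CBX1 and CBX1_W42A, no filter on low counts gave 1 call higher (KCNJ9, adjusted p = 0.0495 in edgeR's quasi-likelihood test) and 1 lower (KCNA7, adjusted p = 0.0155), where the filter gave 0; the cause was not tested. Replicate numbers did not pair the libraries: same-numbered libraries had correlations of deviations from -0.077 to 0.077. With a replicate block, CBX1 against CBX1_W42A gave 1 call higher (KCNJ9, adjusted p = 0.0453 in edgeR's quasi-likelihood test) and 1 lower (KCNA7, adjusted p = 0.0281), and the other counts of calls kept their value. Depth limits most of the family: 54 of 92 genes had fewer than 10 counts in at least 1 library.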
